A study of Mus musculus with 3 samples.

Results

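The transcription factor gene Trp53, which encodes p53, was followed in blood stem and progenitor cells of the mouse together with 9 genes that control p53 or answer to it. These are its inhibitors Mdm2 and Mdm4, the phosphatase gene Ppm1d, the target genes Ccng1, Trp53inp1, Zmat3 and Phlda3, and the DNA damage kinase genes Atm and Atr. The 10 genes were chosen by symbol, all 10 have a count entry, and they are 10 of 24421 gene entries. The 3 libraries came from hematopoietic stem and progenitor cells (HSPCs) of bone marrow, sorted as lineage-negative, c-Kit-positive and Sca-1-positive cells. The mice were C57BL/6, carried both alleles of the repressor gene Cic flanked by loxP sites (Cicflox/flox) and had received tamoxifen. The labels call them controls, give neither age nor sex, name no Cre transgene for them and do not say whether animals were pooled. The study set 2 mouse groups side by side, and the Cic-deficient one was not analysed here, so what follows is the state of the control cells and holds no contrast with Cic loss. Since all 3 libraries share the floxed alleles and the drug, an effect of either cannot be told apart from the baseline.

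p53 is held at a low level in unstressed cells because Mdm2, a ubiquitin ligase, marks it for destruction and Mdm4, a relative of Mdm2, covers its activation domain. When DNA is damaged, the kinase Atm answers to breaks and Atr to stalled replication forks, p53 is freed, and it switches on genes that stop the cell cycle, repair DNA or kill the cell. Some of these genes, Mdm2 and Ppm1d among them, feed back and turn p53 off again. In blood stem cells p53 is known for keeping cells quiescent and for removing cells with damaged DNA.

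The gene totals were 30718562 counts in library 1, 25097769 in library 2 and 30032593 in library 3, and levels are given as CPM, the count scaled to a common total of 1000000 gene counts. A count of 3, the limit that a count of 0 allows, equals 0.0977, 0.120 and 0.0999 CPM, and such limits and the intervals below cover counting error only, as amplified reads are not independent molecules. Cic, the gene targeted in the study, had 168, 139 and 120 CPM in libraries 1, 2 and 3, which says nothing of its flanked exons. All 10 stem and progenitor markers reached a mean of 1 CPM, as did 12965 of all 24421 gene entries, with a summed level of 3157, 2911 and 2727 CPM. The 8 granulocyte and macrophage markers summed to 293, 164 and 230 CPM, of which Itgam, with 66.3% of its words shared, gave 141, 128 and 144 CPM. Among the granule genes in that list Ngp had 80.1, 15.4 and 34.1 CPM and S100a9 35.2, 9.76 and 24.5 CPM in libraries 1, 2 and 3, while the neutrophil elastase gene Elane, outside the list and chosen after its values were seen, had 24.7, 112 and 240 CPM. The 5 T cell markers summed to between 1.37 and 2.43 CPM, and the globin genes Hba-a1 and Hbb-bs were at 0. These globin genes have 72.3% and 53.2% of their words shared, mostly with Hba-a2 and Hbb-bt, so a count of 0 need not mean that their RNA was absent. The 5 B cell markers summed to between 46.1 and 51.0 CPM, 7 erythroid and megakaryocyte markers to between 29.8 and 37.0 CPM, and 6 stromal and endothelial markers, Col3a1 at 0 among them, to between 108 and 119 CPM, most of it Pecam1. The part of these marker differences in the values below was not tested, and fewer cells of a kind cannot be told apart from less RNA per cell.

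The promoter sequences show where the p53 binding motif stands near the starts of these genes. A window from 250 bases before to 50 bases after the start was at hand from RefSeq (GRCm38.p6, the assembly behind mm10) for 8 of the 10 genes, in 9 windows. Trp53inp1 and Zmat3 had no window. The p53 consensus decamer, which is the 10-base unit that p53 sites carry in pairs, was searched without a mismatch, and as it is its own reverse complement 1 search covers both strands. It stood in the windows of 4 genes, Trp53, Mdm2, Ccng1 and Ppm1d, whereas 8.36% of all 32851 promoter windows held it. Those 4 stretches are printed because they let the gene for p53, its inhibitor, its phosphatase and a target be compared, with the decamer in capitals:
Trp53 (chr11:69580259-69580318, plus strand): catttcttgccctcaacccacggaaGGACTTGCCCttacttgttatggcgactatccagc
Mdm2 (chr10:117710910-117710969, minus strand): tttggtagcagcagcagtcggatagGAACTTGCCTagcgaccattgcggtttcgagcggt
Ccng1 (chr11:40755437-40755496, minus strand): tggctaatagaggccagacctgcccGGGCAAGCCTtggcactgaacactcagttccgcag
Ppm1d (chr11:85311097-85311156, plus strand): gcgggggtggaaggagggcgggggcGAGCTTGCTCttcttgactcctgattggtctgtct
The first base of the decamer lay 75 bases before the RefSeq start of Trp53, 186 before that of Mdm2, 185 before that of Ccng1 and 132 before that of Ppm1d. For Ccng1 and Ppm1d the RefSeq start differs from the outer end of the GENCODE gene given further on. No window of the 10 genes held a pair of decamers with a spacer of up to 13 bases, as did 0.0731% of all windows, or 24. Cdkn1a, the p21 gene and the best known arrest target of p53, is among these 24 and is shown beside them, with both matched decamers and their spacer in capitals and the first base 73 bases before the start:
Cdkn1a (chr17:29090891-29090952, plus strand): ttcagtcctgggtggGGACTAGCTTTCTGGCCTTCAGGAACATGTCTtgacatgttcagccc
In the Cdkn1a stretch the 10 bases right after the capitals miss the decamer only at their first base, so the search without a mismatch passed over them. The capitals therefore need not mark the pair that p53 uses. A match is a description of letters and not evidence of binding, and p53 sites in introns lie outside these windows.

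Trp53 itself was among the most abundant of the 10 transcripts. The gene (ENSMUSG00000059552.13, chromosome 11, 69580359 to 69591873, mm10, plus strand) had 11706, 9442 and 10986 counts in libraries 1, 2 and 3, or 381, 376 and 366 CPM. The 3 libraries lay close together, library 3 lowest, and the mean was 374 ± 7.80 CPM (SD, n = 3), rank 357 of all gene entries. Of its 50-base sequence words, 3.95% occur in transcripts of other genes, mostly the pseudogene Trp53-ps, so reads of those stretches are uncertain.

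Both inhibitors were expressed, Mdm4 with many more reads than Mdm2. Mdm2 (ENSMUSG00000020184.15, chromosome 10, 117688875 to 117710758, minus strand), the ubiquitin ligase gene that p53 also activates, had 138, 133 and 140 CPM in libraries 1, 2 and 3, from 4241, 3343 and 4195 counts. Its mean was 137 ± 3.37 CPM, with library 2 lowest. Mdm4 (ENSMUSG00000054387.13, chromosome 1, 132959484 to 133030561, minus strand), which blocks p53 without being a strong ligase of its own, had 606, 666 and 634 CPM from 18628, 16705 and 19044 counts. Library 1 was lowest and library 2 highest, around a mean of 635 ± 29.6 CPM and rank 131 of all gene entries. Mdm4 has 14 annotated transcripts over 16 exon blocks, and 7.31% of its words are shared, mostly with the pseudogene Mdm4-ps.

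Ppm1d (ENSMUSG00000020525.17, chromosome 11, 85311244 to 85347066, plus strand) encodes Wip1, the p53-induced phosphatase that reverses the marks set by the damage kinases. It had 51.2, 51.3 and 59.8 CPM in libraries 1, 2 and 3, from 1573, 1287 and 1796 counts. Libraries 1 and 2 were alike and library 3 was higher, with a mean of 54.1 ± 4.94 CPM.

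The 4 target genes covered a wide range of levels, with Ccng1 high and Phlda3 barely counted. Ccng1 (ENSMUSG00000020326.7, chromosome 11, 40748552 to 40755311, minus strand), the gene of cyclin G1, which brings a phosphatase to Mdm2, had 131, 142 and 142 CPM in libraries 1, 2 and 3, from 4027, 3570 and 4272 counts. Library 1 was lowest and the others were equal to 3 digits, around 139 ± 6.44 CPM. Trp53inp1 (ENSMUSG00000028211.11, chromosome 4, 11156431 to 11174379, plus strand), a stress protein gene that promotes p53-dependent death and autophagy, had 84.6, 84.3 and 72.0 CPM, from 2598, 2116 and 2162 counts. Here library 3 was the low one, and the mean was 80.3 ± 7.19 CPM.

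Zmat3 (ENSMUSG00000027663.12, chromosome 3, 32334792 to 32366014, minus strand), which encodes an RNA-binding zinc finger protein, had 27.9, 24.5 and 24.7 CPM in libraries 1, 2 and 3, from 858, 616 and 741 counts. Library 1 was slightly above the others, around 25.7 ± 1.92 CPM. Phlda3 (ENSMUSG00000041801.5, chromosome 1, 135766119 to 135769136, plus strand) encodes a small protein that keeps the survival kinase Akt from the membrane. It had only 54, 33 and 28 counts, or 1.76, 1.31 and 0.932 CPM, with exact Poisson 95% intervals of 1.32 to 2.29, 0.905 to 1.85 and 0.620 to 1.35 CPM. Library 1 was highest and library 3 lowest, the intervals of libraries 1 and 3 overlapped slightly, and the mean was 1.34 ± 0.413 CPM, rank 12593 of all gene entries.

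Of the damage kinases, Atm had more reads than Atr. Atm (ENSMUSG00000034218.16, chromosome 9, 53439149 to 53536740, minus strand) had 314, 322 and 322 CPM in libraries 1, 2 and 3, from 9654, 8093 and 9660 counts. It was the steadiest of the 10 genes, with a mean of 319 ± 4.51 CPM. Atr (ENSMUSG00000032409.15, chromosome 9, 95857597 to 95951781, plus strand) had 129, 146 and 139 CPM, from 3966, 3667 and 4176 counts. Library 1 was lowest and library 2 highest, around 138 ± 8.54 CPM. Other annotated genes overlap 5.78% of the exon bases of Atr, among them the antisense gene 1700065D16Rik with 7, 2 and 7 counts, and as the strand setting of the counting is not given, reads of both cannot be told apart. Gm16794 and Gm24004 also overlap exons of Atr and were not analysed here, and Gm29257 lies in an intron of Mdm4. No exon of the other 9 genes is overlapped on the annotation.

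**Figure D1:**
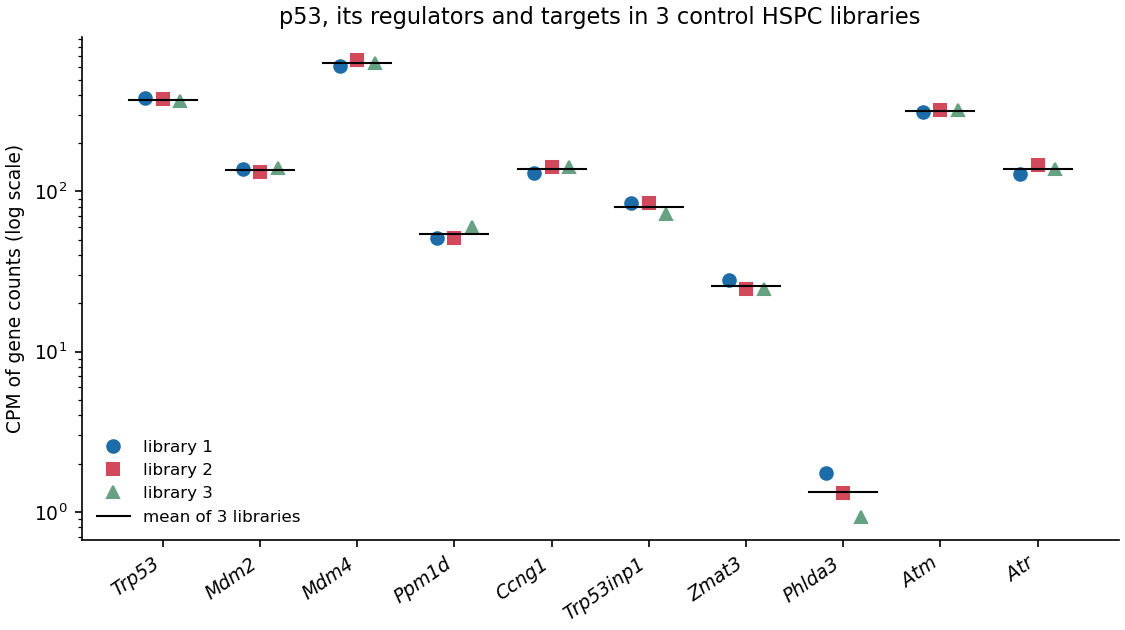
CPM of gene counts (log scale) of the 10 genes in control HSPCs, with a circle, a square and a triangle for libraries 1, 2 and 3 and a line for their mean. Mdm4 is highest at a mean of 635 CPM, Phlda3 lowest at 1.34 CPM, and only Phlda3 shows its 3 libraries clearly apart on this scale.

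CPM grows with the length of a transcript, so levels were set side by side per kilobase of exon (CPM per kb). With the union of all annotated exons as length, the order from high to low was Trp53, Mdm4, Ccng1, Atm, Mdm2, Ppm1d, Trp53inp1, Atr, Zmat3 and Phlda3. Trp53 led at 92.5 ± 1.93 CPM per kb, rank 286 of the 12874 tested genes (mean CPM of 1 or more) that had a length, whose median was 6.41 CPM per kb. Mdm4 followed at 42.9 ± 2.00, Ccng1 at 39.4 ± 1.83, Atm at 30.9 ± 0.436 and Mdm2 at 26.9 ± 0.664 CPM per kb. The lower members were Ppm1d at 17.0 ± 1.56, Trp53inp1 at 12.4 ± 1.11, Atr at 5.84 ± 0.361, Zmat3 at 2.25 ± 0.168 and Phlda3 at 0.856 ± 0.265 CPM per kb. By this length 7 of the 10 genes lay above that median. Atr, just below it here, has 17.0 CPM per kb by other lengths, for which no median was computed.

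Each of the 9 neighbouring pairs in that order kept its direction in 3 of 3 libraries, by more than 1 SD of its within-library log2 difference. The means of these same libraries set the order, so a positive mean step was nearly fixed in advance. The smallest step was Mdm4 over Ccng1 at 0.12 (SD 0.04), and the step with the widest spread was Ppm1d over Trp53inp1 at 0.44 (SD 0.25), both in log2(CPM per kb + 0.5). Large steps separated Trp53 from Mdm4 (1.10, SD 0.08), Trp53inp1 from Atr (1.02, SD 0.16), Atr from Zmat3 (1.21, SD 0.17) and Zmat3 from Phlda3 (1.04, SD 0.22). The exact permutation test over sign flips (two-sided) gave p = 0.25 for each pair, also after Benjamini-Hochberg adjustment over the 9, which is the smallest that 3 libraries allow.

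The length used changed this order in its middle part. Per kb of exons of transcripts paired with a RefSeq accession, a definition chosen after seeing the data, Trp53 stood at 201 ± 4.18, Mdm4 at 88.4 ± 4.12, Mdm2 at 44.2 ± 1.09, Ccng1 at 39.4 ± 1.83, Atm at 32.6 ± 0.461, Ppm1d at 18.7 ± 1.70 and Atr at 17.0 ± 1.05 CPM per kb. Trp53inp1, Zmat3 and Phlda3 came last at 14.9 ± 1.33, 3.30 ± 0.246 and 0.930 ± 0.288 CPM per kb. Mdm2 thus passed Ccng1 and Atm, and Atr passed Trp53inp1. Ppm1d over Atr was 0.13 (SD 0.14) in log2 and positive in 2 of 3 libraries, so these neighbours did not differ beyond their spread. Which transcripts the authors counted is not given in the sources used here, and the union is long for Atr (23629 bases against 8102 paired with RefSeq), Mdm4 (14798 against 7186) and Trp53 (4045 against 1867).

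**Figure D2:**
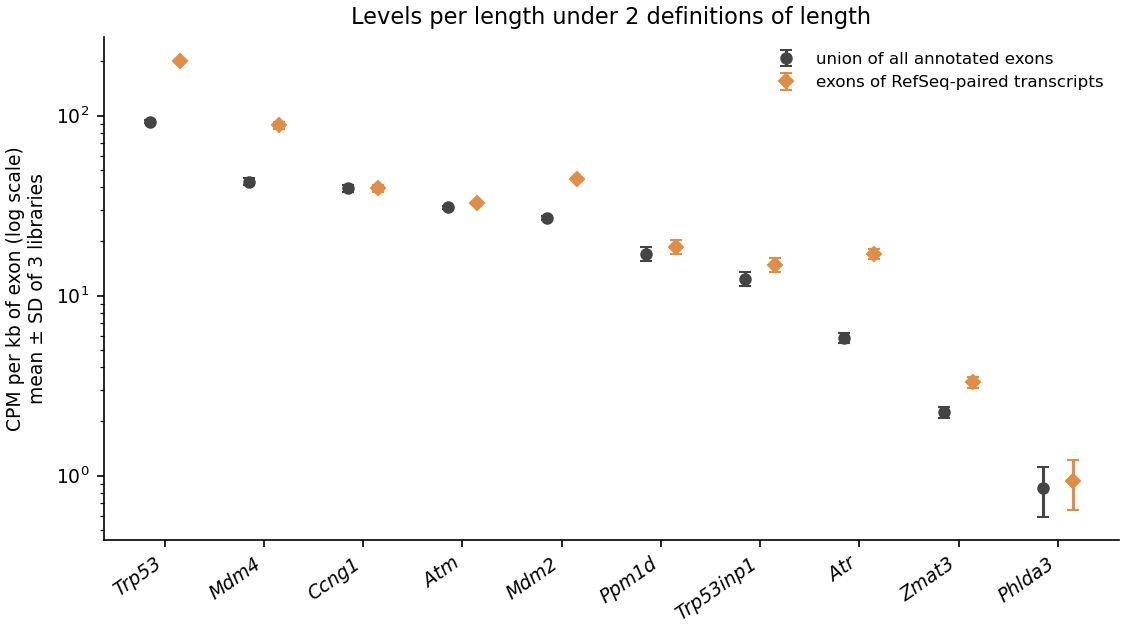
CPM per kb of exon (log scale, mean ± SD of 3 libraries) of the 10 genes in the order given by the union of annotated exons (circles), with the values per kb of RefSeq-paired exons beside them (diamonds). Trp53 is highest and Zmat3 and Phlda3 are lowest by either length, while Atr stands at 5.84 CPM per kb by the union and at 17.0 by RefSeq-paired exons.

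Within a library, the transcripts of both inhibitors lay below that of p53 per length. Mdm2 over Trp53 was -1.78, -1.81 and -1.70 in log2(CPM per kb + 0.5) in libraries 1, 2 and 3, a ratio of 0.295 with an SD of 0.06 in log2. Mdm4 over Trp53 was -1.19, -1.04 and -1.07, a ratio of 0.467 (log2 SD 0.08). Mdm2 over Mdm4 was -0.58, -0.77 and -0.63, a ratio of 0.632 (log2 SD 0.10). All 3 ratios kept their sign in each library, and with RefSeq-paired lengths they were 0.222, 0.442 and 0.503. By the longest annotated transcript the mean log2 ratios were -1.38, -0.35 and -1.03, so Mdm4 then lay much closer to Trp53. The sign for Mdm4 over Trp53 depends on length, since Mdm4 drew more reads than Trp53 (0.76 in log2 CPM without a length).

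Atm over Atr was 2.37, 2.25 and 2.31 in log2(CPM per kb + 0.5) in libraries 1, 2 and 3, a ratio of 4.95 by the union of exons and 1.89 by RefSeq-paired exons. The direction held by either length, but the size of the ratio did not. Ppm1d over Trp53 was -2.51, -2.49 and -2.23 (ratio 0.188), and Ccng1 over Trp53 was -1.32, -1.19 and -1.15 (ratio 0.429). With RefSeq-paired lengths these were 0.0951 and 0.199. Each of the 6 ratios gave an exact two-sided sign-flip permutation p of 0.25, the smallest possible, and 0.25 after adjustment over the 6.

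**Figure D3:**
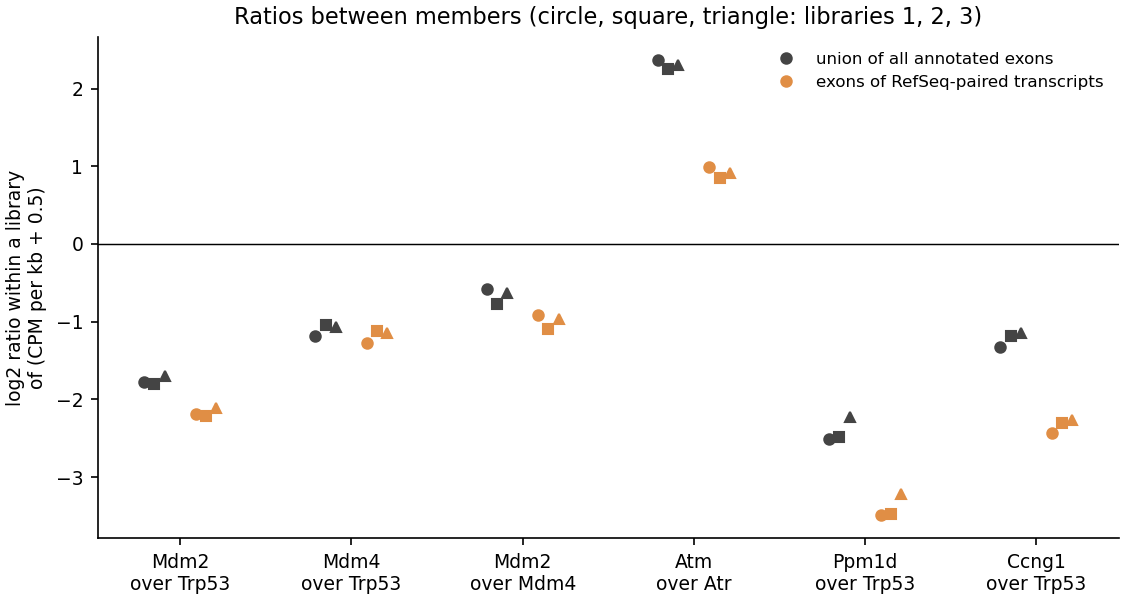
Within-library log2 ratios of (CPM per kb + 0.5) for 6 pairs of genes, 1 symbol per library, by the union of annotated exons (dark) and by RefSeq-paired exons (orange). Atm over Atr is the 1 pair above 0, and it moves most with length, to a ratio of 1.89 in place of 4.95.

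The 10 genes varied little between the control libraries. The range of log2(CPM + 0.5) over the 3 libraries was 0.04 for Atm, 0.06 for Trp53, 0.07 for Mdm2, 0.12 for Ccng1, 0.13 for Mdm4, 0.18 for Atr, 0.18 for Zmat3, 0.22 for Ppm1d, 0.23 for Trp53inp1 and 0.66 for Phlda3. Of the 10, 9 had a range under 0.5, as did 67.2% of the 12965 genes tested, and the median range was 0.16 over the 10 and 0.36 over all those genes. The coefficient of variation ran from 1.41% for Atm, 2.08% for Trp53 and 2.46% for Mdm2 to 30.9% for Phlda3. Ranges and coefficients alike rest on gene totals and depend on the scaling. With edgeR's TMM sizes the ranges widen for Trp53, Mdm2, Ppm1d, Trp53inp1, Zmat3 and Phlda3 and narrow for Mdm4, Ccng1, Atm and Atr. As genes with more counts vary less and the median member lay at 138 CPM, against 25.9 CPM over all tested genes, these ranges are not set against genes of like abundance.

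A comparison at like abundance came from edgeR's quasi-likelihood fit, in which the dispersion of a gene was set over the trend of genes at its level with an F test. None of the 10 genes passed at a Benjamini-Hochberg adjusted p of 0.05 over all 12965 genes, none had an unadjusted p under 0.05, and DESeq2 flagged none as a dispersion outlier. Over all genes edgeR called 0.00771%, which is the 1 gene Elane, 4.57% had an unadjusted p under 0.05, and DESeq2 flagged 0.231%. Without library 1 edgeR called 16 genes and without library 3 it called 2, none of them among the 10. The spread of each of the 10 lay below the trend, as did that of 58.2% of all genes. The lowest unadjusted p from edgeR was 0.429, for Trp53inp1 (adjusted p = 0.987), and the highest 0.992, for Atm. A p that misses the threshold does not show that a gene is constant.

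**Figure D4:**
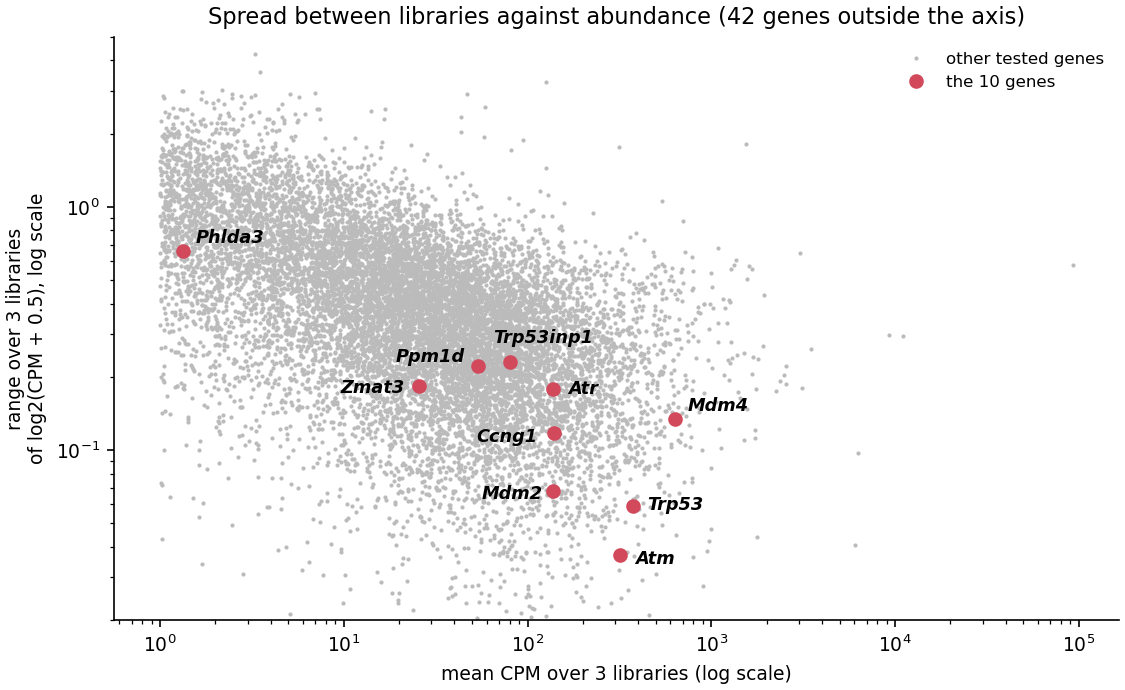
Range of log2(CPM + 0.5) over the 3 control libraries (log scale) against mean CPM (log scale) for 12965 genes (grey; 42 lie outside the axis) and the 10 genes (red). Atm, Trp53 and Mdm2 lie near the lower edge of the cloud at ranges of 0.04, 0.06 and 0.07, and Phlda3 at 1.34 CPM has the widest range of the 10.

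Measured against read counting alone, which is a low bar for amplified reads, most of the 10 genes did differ between libraries. A chi-square test of the 3 counts called 8 of 10 after Benjamini-Hochberg adjustment over all tested genes, and it called 82.6% of all tested genes. The share among the 10 is therefore near the background. Atm (adjusted p = 0.173) and Mdm2 (adjusted p = 0.124) were not called, and the lowest adjusted p was that of Mdm4, 1.37e-16, followed by Trp53inp1 at 1.56e-08. With edgeR's TMM sizes in place of totals the test called 9 of the 10, Mdm2 then among them and Atm again not. By pairs, 4 of 10 were called between libraries 1 and 2 (64.2% of all genes), 8 of 10 between libraries 1 and 3 (67.2%) and 3 of 10 between libraries 2 and 3 (51.1%). Without library 1 the count of members was thus 3 and without library 3 it was 4, and without library 1 6660 genes were called in place of 10707.

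The 10 genes did not share 1 direction across the libraries. Trp53, Trp53inp1, Zmat3 and Phlda3 were highest in library 1, Mdm4, Atm and Atr in library 2, and Mdm2, Ccng1 and Ppm1d in library 3, where Ccng1 rests on a tie with library 2 at 142 CPM. That is 4, 3 and 3 of 10, beside 31.9%, 35.6% and 32.5% of all tested genes. Library 1 was lowest for 5 genes, Mdm4, Ccng1, Ppm1d, Atm and Atr, as for 44.3% of all tested genes, library 2 for Mdm2 and Zmat3 (23.6%), and library 3 for Trp53, Trp53inp1 and Phlda3 (32.1%). These places rest on gene totals and depend on the scaling. With edgeR's TMM sizes in place of totals, Mdm2 and Atm are highest in library 1, and Atm and Ppm1d are lowest in library 2. The shares of all tested genes were not computed with TMM sizes. The largest difference between any 2 libraries was Phlda3 in library 1 over library 3, 0.66 in log2(CPM + 0.5) with a chi-square adjusted p of 0.00970, and the other pairs of libraries for Phlda3 gave 0.32 and 0.34 with adjusted p-values of 0.243 and 0.258. Among the other 9 genes the largest was Trp53inp1 in library 1 over library 3 at 0.23 (chi-square adjusted p = 1.03e-07), and Ppm1d ran the other way at -0.22 in library 1 over library 3 (1.80e-05).

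Around the 10 genes, 6 wider lists of the pathway were read, with 106 genes that have an entry. Of these, 97 reached a mean of 1 CPM, beside 12965 of all 24421 gene entries, and 3 had no count in any library. The same background holds for the number of genes at 1 CPM in each list below. As the lists were written with earlier results of these data known, a high share at 1 CPM is no finding about the pathway. No listed gene was called by edgeR's spread test over all genes, 6 (6.19% of 97) had an unadjusted p under 0.05 against 4.57% of all tested genes, and DESeq2 flagged none. The chi-square test called 80 of 97 (82.5%), near the 82.6% of all tested genes. Regulators and damage genes lay higher than the targets. The list medians were 119 CPM for the ubiquitin, acetylation and methylation regulators, 90.7 CPM for the damage genes, 18, 13.7 and 14.3 CPM for the targets of arrest, of apoptosis and of repair and metabolism, and 5.15 CPM for the p53 family and interacting genes, beside 25.9 CPM over all tested genes, which unlike the lists leave out genes under 1 CPM. Per kb of union exon the medians were 14.7, 14.8, 4.97, 4.12, 3.23 and 2.23 CPM per kb in the same order, beside 6.41 over all tested genes. Lists include a few genes, such as Zmat1 and Prmt5, for which no role as a p53 target is claimed here.

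The closest relatives of p53 were not detected at this depth. Of the 10 genes of the p53 family and interacting list, 8 reached 1 CPM, and Trp63 and Trp73, which encode p63 and p73, had 0 counts in every library. Highest by union length were Trp53i11 at 20.5 ± 3.79 CPM per kb, Ppp1r13b, which encodes ASPP1, at 17.4 ± 0.644 and Trp53bp2, which encodes ASPP2, at 13 ± 0.283 CPM per kb. ASPP proteins steer p53 toward death genes. The chi-square test called 6 of the 8 genes tested, beside 82.6% of all tested genes. By RefSeq-paired exons Trp53bp1, at 13.9 CPM per kb, passed Trp53bp2 at 13.2.

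Nearly all listed regulators that modify p53 reached 1 CPM, beside 12965 of all 24421 gene entries. Of 21 genes, 20 reached 1 CPM, all 20 were called by the chi-square test beside 82.6% of all tested genes, and the exception was Cdkn2a, which encodes the Mdm2 inhibitor Arf as well as p16, with 0 counts in every library. Highest by union length were the ribosomal protein genes Rpl5 and Rpl11, whose products hold Mdm2 back when ribosome building is disturbed, at 409 ± 79.7 and 258 ± 37.8 CPM per kb. Rpl5 and Rpl11 have 48.9% and 17.7% of their 50-base words in common with transcripts of other genes, which leaves their counts uncertain. Trim28, a corepressor that works with Mdm2, was at 71.1 ± 6.66 CPM per kb, and Trim24, a ligase for p53, was by union length the lowest of the 20 at 7.02 ± 0.739 CPM per kb. By RefSeq-paired exons Rpl11 at 835 CPM per kb passed Rpl5 at 784, Hdac1 at 98.8 passed Trim28 at 91.2, and Daxx, Kat5 and Kat8 at 13.1, 13.3 and 13.9 lay just below Trim24 at 14.

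In the damage response list 19 of 19 genes reached 1 CPM, beside 12965 of all 24421 gene entries. The chi-square test called 16 of them (82.6% of all tested genes). Highest by union length were H2afx, the histone variant that is marked at DNA breaks, at 109 ± 19.7 CPM per kb, Rad50 of the break sensor complex at 56.4 ± 2.81 and Parp1 at 51.6 ± 4.42 CPM per kb. Lowest by union length were the clamp loader gene Rad17 at 2.62 ± 0.201 and the ligase gene Rnf8 at 0.461 ± 0.174 CPM per kb, the last with 14.5% of its words shared. By RefSeq-paired exons Topbp1 came second at 75.4 CPM per kb, ahead of Parp1 at 70.6 and Rad50 at 58.8, and Atrip at 6.72 lay below Rad17 at 7.44. H2afx had 182.5, 137 and 134 CPM in libraries 1, 2 and 3, with library 1 high (unadjusted p = 0.0415 and adjusted p = 0.983 with edgeR). The checkpoint kinase genes that act below Atr and Atm, Chek1 and Chek2, which were chosen after their values were seen, had 58.2 ± 4.11 and 46.3 ± 7.5 CPM.

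All 14 targets of cell cycle arrest reached 1 CPM, beside 12965 of all 24421 gene entries, and 13 were called by the chi-square test (82.6% of all tested genes). Highest by union length were the stress sensor gene Sesn1 at 35.8 ± 4.83 CPM per kb, the antiproliferative gene Btg2 at 17.7 ± 7.63 and the spindle gene Ckap2 at 14.1 ± 0.0593 CPM per kb. Lowest by union length were the Polo-like kinase genes Plk2 and Plk3 at 1.62 ± 0.853 and 1.20 ± 0.312 CPM per kb. By RefSeq-paired exons Ccng2 at 17.9 CPM per kb passed Btg2 at 17.7 and Ckap2 at 17.5, and Sfn at 1.99 and Sesn2 at 2.46 lay below Plk2 at 2.60. Btg2 had 30.2, 43.9 and 71.3 CPM in libraries 1, 2 and 3, lowest in library 1 and highest in library 3 (unadjusted p = 0.00335 and adjusted p = 0.943 with edgeR). Plk2 had 3.06, 8.29 and 10.5 CPM, in the same order of libraries (unadjusted p = 0.0255). Cdkn1a, chosen after its values were seen, had 548, 421 and 705 counts, or 17.8, 16.8 and 23.5 CPM, with library 3 highest and a mean of 19.4 ± 3.60 CPM.

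Of the 18 genes listed under apoptosis, Zmat1 among them, 16 reached 1 CPM and 11 of the 16 were called by the chi-square test, beside 82.6% of all tested genes. Highest by union length were Pdrg1 at 34.9 ± 1.19, Ei24 at 12.4 ± 2.28 and Triap1, which restrains the apoptosome, at 8.88 ± 0.369 CPM per kb. By RefSeq-paired exons Siva1, Bid, Apaf1 and Bax lay above Triap1, at 22.8, 14.3, 11.7 and 11.2 CPM per kb. The death receptor gene Fas had 58, 6 and 15 counts and Eda2r, another receptor of its family, 6, 39 and 24 counts in libraries 1, 2 and 3, so both stayed under a mean of 1 CPM. Of the killer genes of the Bcl2 family, the next 4 were chosen after their values were seen. Bid averaged 31.2 ± 2.04 CPM, above the median of all tested genes. Bax had 5.31, 14.1 and 9.79 CPM (unadjusted p = 0.0449 with edgeR), lowest in library 1. Bbc3, which encodes Puma, was at 1.32 ± 0.457 CPM, and Pmaip1, which encodes Noxa, at 1.71 ± 0.213 CPM. The nuclease gene Aen had 19.3, 32.9 and 34.4 CPM (unadjusted p = 0.0497).

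Of the 25 genes listed under repair, metabolism and other roles, Prmt5 among them, 21 reached 1 CPM. The chi-square test called 15 of the 21, beside 82.6% of all tested genes. Highest by union length were Pcna, the replication clamp gene, at 172 ± 22.4 CPM per kb (19.1% of words shared), Rps27l at 46.9 ± 9.11 (11.2% shared) and Pml, which organises nuclear bodies, at 25.6 ± 1.89 CPM per kb. By RefSeq-paired exons Tap1 and Prmt5, at 39.0 and 32.2 CPM per kb, lay above Pml at 31.9. The lowest were the cytokine gene Lif with 0, 13 and 42 counts and the costimulator gene Cd80 with 0, 8 and 12 counts. Steap3, a metalloreductase gene, had 7.26, 16.9 and 22.9 CPM in libraries 1, 2 and 3, lowest in library 1 and highest in library 3 (unadjusted p = 0.00756 and adjusted p = 0.983 with edgeR).

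**Figure D5:**
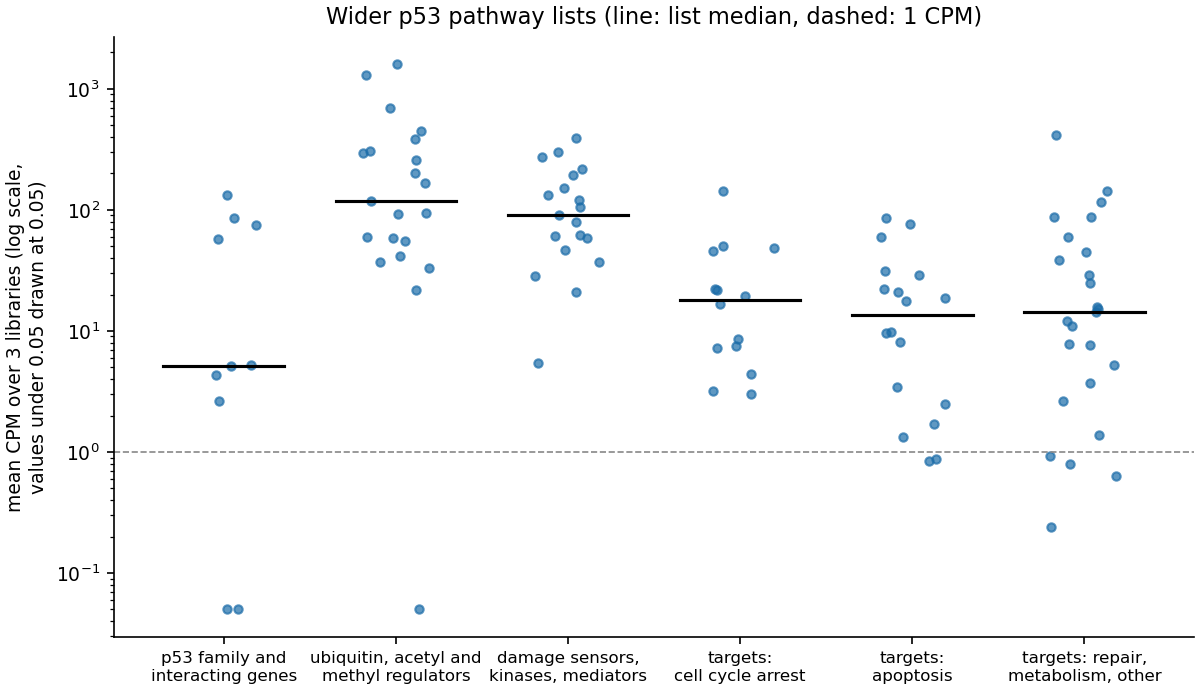
Mean CPM over 3 libraries (log scale) of each gene of the 6 wider lists (points, values under 0.05 drawn at 0.05), with the list median (line) and 1 CPM (dashed). The regulators and the damage genes have medians of 119 and 90.7 CPM, the 3 target lists medians between 13.7 and 18 CPM.

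Among the wider lists, the genes whose values over the 3 libraries were most like those of Trp53 were Ppp1r13b, Polk, the gene of a lesion-bypass polymerase, and Pdrg1. Likeness was the root mean square difference of centred log2(CPM + 0.5) over 3 libraries, among 73 listed genes that averaged 10 CPM or more, and came to 0.02 for Ppp1r13b and 0.03 for Polk and Pdrg1. As 304 of all 9258 genes at that level lay as near to Trp53 as Pdrg1 did, this is a description of steady genes.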

How the data were processed

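RNA of control HSPCs was measured in 3 libraries, 1 group, numbered by the replicate number in their titles. Per the labels' protocols, the NuGEN Ovation kit made and amplified cDNA, from 10 ng of RNA, with poly(A) and random priming. The deposited values are raw counts of reads, 1 per gene symbol, without normalization. Per the submitters' processing notes, TopHat2 2.0.9, HTSeq, DESeq2 and mm10 were used, and for gene model, strand and overlap settings the sources used here give nothing. The 92 spike-in and 5 category entries were left out, and gene entries held 38.2%, 34.1% and 40.0% of all counts.

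CPM were taken on gene totals, logs with a pseudocount of 0.5, which understates differences of low genes. Genes whose mean CPM was 1 or more, 12965 in all, were tested: a chi-square test of counts against library totals, and edgeR's quasi-likelihood fit (TMM, intercept only, robust) with an F test of quasi-dispersion over the trend, using the prior degrees of freedom of the bulk of genes, both with Benjamini-Hochberg adjusted p under 0.05. No label says whether each library is a separate animal, so p-values measure only the spread between these libraries, which may be technical. Exon lengths and coordinates came from GENCODE M21 on GRCm38, with 98.5% of symbols matched, promoters from RefSeq. The members and lists were chosen with earlier results of these data known. All 10 members are named, and of each list the 3 highest and 2 lowest per kb, genes past the spread test, the 3 nearest to Trp53 and genes that overlap a member. Genes named outside this rule are said to be, or, for the 6 of unadjusted p under 0.05, were named for that p, and those named for their place by RefSeq-paired exons were chosen after their values were seen. On simulated data of 12965 genes with 50 genes per fold changed in 1 library, the spread test found 42% of 2-fold changes and 86% of 4-fold changes. Each simulated gene had the dispersion of the trend, without scatter between genes, so these shares can overstate the power in the data. For example, Ngp, at 80.1, 15.4 and 34.1 CPM in libraries 1, 2 and 3, was not called (edgeR adjusted p = 0.140). Software was R 4.3.3 with edgeR 4.0.16 and DESeq2 1.42.0, with SciPy 1.17.1, pandas 2.3.3, NumPy 2.4.6 and matplotlib 3.10.9 under Python 3.11.15. Alternatives were other scalings, pseudocounts, minima, lengths, DESeq2's dispersion outliers and leaving out each library.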

Additional observations from a re-analysis of the deposited data

How the results depend on the processing

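No paired analysis was possible because there is 1 group of libraries. Levels in CPM of the 10 genes stayed within 1 SD under edgeR's TMM sizes and DESeq2's size factors. Both keep the average library size of the totals, so the mean of a gene could hardly move and this shows little. The median tested gene shifted by -0.00027 and -0.00026 in log2. Such scalings change the spread between libraries instead. Levels also stayed within 1 SD without any 1 library, but leaving out 1 of 3 libraries cannot move a mean by 1 SD, so this shows nothing. Totals without Rn45s shifted the median tested gene by 0.14 in log2, and 9 of 10 levels moved with it beyond 1 SD. (Rn45s, the ribosomal RNA precursor gene, took 11.8%, 8.20% and 7.91% of gene counts in libraries 1, 2 and 3.) With CPM and no length, log2 Mdm4 over Trp53 was 0.76 (Trp53 over Mdm4 -0.76), Ccng1 over Atm -1.20, Ppm1d over Trp53inp1 -0.57 and Trp53inp1 over Atr -0.78, each against its direction per kb. By the longest transcript Atm over Mdm2 was -0.42 and Trp53inp1 over Atr -0.20, and by RefSeq-paired exons -0.43 and -0.19, again reversed. The other ratios and steps kept their sign under every length. Only the length could change a sign, since a pseudocount or scaling shared by both genes of a pair keeps it. Leaving out a library could not change it either, as each pair had 1 sign in all 3 libraries. The chi-square test called between 6660 and 8709 genes, and between 3 and 8 members, with 1 library left out. With TMM sizes it called 9 members, against 8 on gene totals. The edgeR spread test called between 1 and 16 genes with 1 library left out (16 without library 1, 2 without library 3), 16 with no minimum, and DESeq2 flagged 30, but no member in any of these settings. Depth limits Phlda3 most, with 28 to 54 counts per library.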
